A study of Mus musculus with 12 samples.

Results

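The inhibitory checkpoint receptors of CD8+ T cells are surface proteins that dampen T cell activation when they meet their ligands. The transcripts of 9 such receptors were followed here: Pdcd1, Lag3, Havcr2, Ctla4, Tigit, Cd160, Btla, Cd200r1 and Lair1. They were found by symbol among 55487 gene identifiers of the count table, and each of the 9 matched 1 identifier and passed the filter on low counts, with 35 to 10687 counts in a library. The 12 libraries come from CD8+ T cells of C57BL/6 mouse splenocytes in 4 treatment groups of 3 libraries: IL-12 with 80%TCM, IL-12, IL-2 with 80%TCM, and IL-2. IL-12 activates the transcription factor STAT4 and promotes interferon gamma production, and IL-2 sustains the growth and survival of T cells. The labels do not spell out TCM, name no genotype or age, and give no culture time. Nothing says that replicates are separate animals or cultures, so p-values cover the spread of these samples alone, and that spread may be technical.

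PD-1 (Pdcd1) and CTLA-4 (Ctla4) are the receptors best known from checkpoint blockade. PD-1 binds PD-L1 and PD-L2 and recruits phosphatases to the T cell receptor, and CTLA-4 competes with the activating receptor CD28 for CD80 and CD86. BTLA (Btla) and CD160 (Cd160) share the ligand HVEM, and TIGIT (Tigit) binds the poliovirus receptor PVR in competition with the activating receptor CD226. LAG-3 (Lag3) binds MHC class II, TIM-3 (Havcr2) binds galectin-9 among others, LAIR-1 (Lair1) binds collagens, and CD200R (Cd200r1) binds CD200. Several of them are also induced by T cell activation itself, so their transcripts mark activated as well as chronically stimulated cells.

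Total counts per library lay between 19500568 and 26007717 in 10 libraries, and replicates 1 and 2 of IL-12 were deeper, at 49638920 and 42349121, with less counting error. Levels are counts per 1e+06 counts on library sizes scaled by the trimmed mean of M-values (CPM), given as mean ± SD over n = 3 libraries. The 6 markers of CD8 T cells summed to 3672 to 4370 CPM in the 12 libraries, with Cd8a at 813 to 1365 CPM. Of the markers of CD4 and regulatory T cells, Cd4 lay at 0.444 to 4.55 CPM and Zbtb7b, the highest, at 14.8 to 29.7 CPM. Markers of other cells were lower but not all near 0: the highest of each list reached 17.3 CPM for B cells (Cd79b), 15.6 CPM for myeloid cells (Cd68), 11.0 CPM for dendritic cells (Xcr1), 2.14 CPM for NK cells (Klrb1c) and 46.5 CPM for platelets (Itga2b), while the macrophage receptor gene Csf1r was at 0 in 8 of 12 libraries. Replicate 3 of IL-2 with 80%TCM and replicate 3 of IL-2 stood apart from the other replicates of their groups. Between replicates, the chi-square divided by its degrees of freedom was 31.9 to 51.0 for the pairs with either library, against 2.54 to 6.00 for all other pairs, where counting error alone gives about 1. For several receptors, results are given with and without these libraries. In bulk RNA, fewer cells with a transcript and less transcript per cell cannot be told apart.

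The receptors differed widely in level. Per kilobase of exon, Ctla4 and Lag3 were the 2 most abundant in each group: Lag3 was at 179 and Ctla4 at 107 CPM per kb in IL-12 with 80%TCM, and Ctla4 was at 73.7 and Lag3 at 67.9 CPM per kb in IL-12. In IL-2 with 80%TCM Ctla4 was at 157 and Lag3 at 89.2 CPM per kb, and in IL-2 they were at 106 and 65.8. Cd200r1 was the least abundant receptor in all 4 groups, at 0.610, 0.598, 1.18 and 0.904 CPM per kb in the same order of groups. The middle of the order depended on the cytokine. In both IL-12 groups Btla and Pdcd1 were above Cd160 and Tigit on the per-kilobase scale, with Btla at 24.6 and 29.1 CPM per kb with and without 80%TCM. In both IL-2 groups Tigit and Cd160 were above Pdcd1 and Btla, with Tigit at 29.5 and 21.8 CPM per kb.

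**Figure D1:**
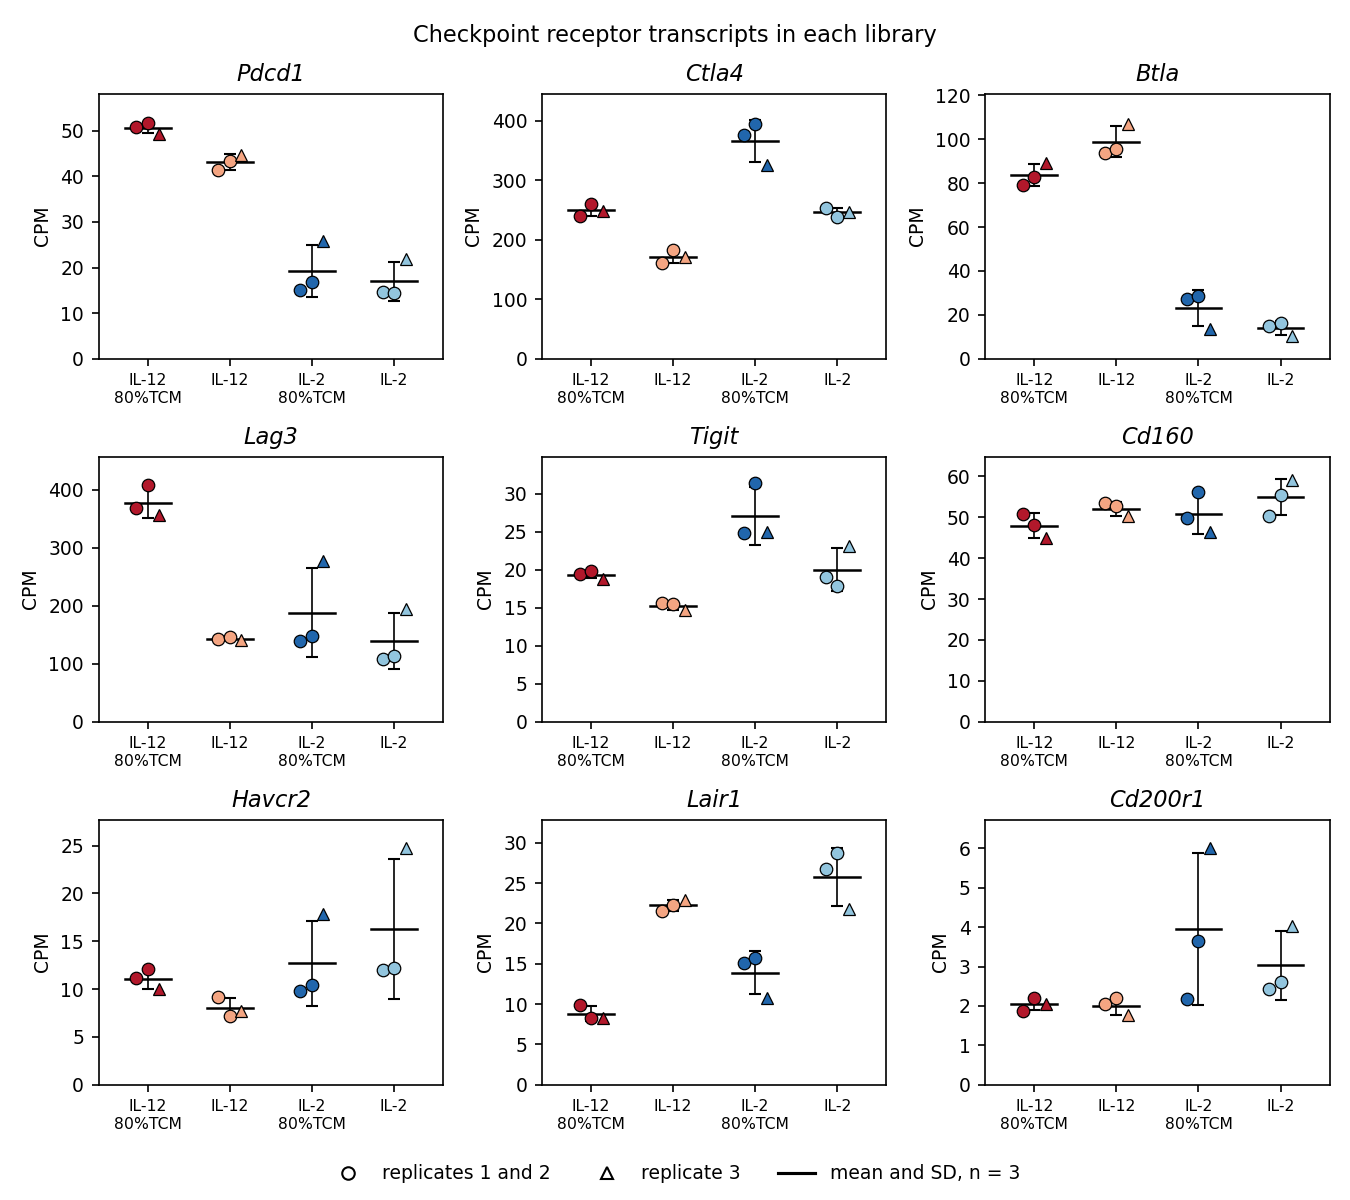
CPM of the 9 receptor transcripts in each of the 12 libraries, with bars for the mean and SD over n = 3. Circles are replicates 1 and 2 and triangles replicate 3; Btla and Pdcd1 sit higher in all 6 IL-12 libraries than in all 6 IL-2 libraries, and the triangles of the IL-2 groups stand off the circles for Lag3, Havcr2 and Pdcd1.

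Stretches upstream of the transcript start are shown for the genes whose transcripts moved together: Btla and Pdcd1, which were higher with IL-12, Ctla4 and Tigit, which were lower with IL-12 and higher with 80%TCM, and Lair1, which was lower with 80%TCM. Each is the 250 bases before the RefSeq transcript start in mouse build GRCm38.p6, written 5′ to 3′ along the gene, and capitals mark the letters of a motif found on either strand.
Btla (chr16:45224087-45224336, plus strand): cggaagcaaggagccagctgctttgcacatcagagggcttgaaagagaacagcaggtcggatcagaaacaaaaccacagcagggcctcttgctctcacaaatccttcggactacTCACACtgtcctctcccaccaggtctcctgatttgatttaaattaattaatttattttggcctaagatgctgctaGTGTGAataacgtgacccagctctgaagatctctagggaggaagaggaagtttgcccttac
Pdcd1 (chr1:94052554-94052803, minus strand): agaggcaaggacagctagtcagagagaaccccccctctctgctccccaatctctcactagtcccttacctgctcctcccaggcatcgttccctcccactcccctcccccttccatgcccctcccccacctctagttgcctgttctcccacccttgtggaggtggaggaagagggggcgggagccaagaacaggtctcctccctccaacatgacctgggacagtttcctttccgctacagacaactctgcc
Ctla4 (chr1:60908775-60909024, plus strand): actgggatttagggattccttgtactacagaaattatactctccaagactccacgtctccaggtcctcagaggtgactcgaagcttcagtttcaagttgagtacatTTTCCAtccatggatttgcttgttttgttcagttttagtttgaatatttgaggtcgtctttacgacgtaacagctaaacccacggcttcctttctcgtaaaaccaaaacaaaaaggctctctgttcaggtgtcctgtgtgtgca
Tigit (chr16:43664185-43664434, minus strand): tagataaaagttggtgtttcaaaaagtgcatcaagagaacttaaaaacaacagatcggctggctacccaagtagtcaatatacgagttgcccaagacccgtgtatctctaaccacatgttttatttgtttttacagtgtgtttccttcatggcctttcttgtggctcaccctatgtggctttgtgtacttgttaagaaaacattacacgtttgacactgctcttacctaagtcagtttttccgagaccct
Lair1 (chr7:4063205-4063454, minus strand): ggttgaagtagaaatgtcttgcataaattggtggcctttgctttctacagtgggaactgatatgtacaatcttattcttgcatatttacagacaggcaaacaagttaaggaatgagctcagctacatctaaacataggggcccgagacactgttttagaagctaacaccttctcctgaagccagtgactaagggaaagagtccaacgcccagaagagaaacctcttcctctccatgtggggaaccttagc

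4 motifs were searched on both strands: TTCNNNGAA, bound by STAT factors, TGANTCA, bound by AP-1, TCACAC, the core of a T-box site, and TGGAAA, the core of an NFAT site. No pair of these motifs overlapped in the windows shown. Btla held 2 T-box cores, 136 to 131 and 61 to 56 bases before the start, and 12.3% of all 32851 windows of this length hold at least 1. Ctla4 held 1 NFAT core, 144 to 139 bases before the start, which 18.6% of all windows hold. Neither a STAT match, present in 7.02% of windows, nor an AP-1 match, present in 6.75%, lay in the 5 windows shown. Among all 8 windows available for the receptors, 1 held a STAT match (Cd160) and 1 an AP-1 match (Havcr2). The Cd160 windows also held T-box cores. A match is a run of letters and not a measured binding site.

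The comparison of IL-12 with IL-2 asked how the cytokine set the receptors. Btla and Pdcd1 were higher and Ctla4 and Tigit lower with IL-12, both with and without 80%TCM. Of the 9 receptors, 7 passed the test with 80%TCM (3 higher, 4 lower) and 5 passed it without (2 higher, 3 lower), by edgeR's quasi-likelihood test with Benjamini-Hochberg adjustment over 15897 genes. Of all genes tested, 39% passed with 80%TCM (19.5% higher, 19.4% lower) and 45.1% without (22.1% higher, 23% lower), so that the share of receptors without 80%TCM was near that of all genes. The 2 groups did not overlap for 6 of the 9 receptors in either comparison, and for 50% of all genes with 80%TCM and 57.3% without. The median log2 fold change of the 9 was -0.20 with 80%TCM and -0.22 without, against -0.01 for all genes tested in each.

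Btla was at 79.1, 82.8 and 89.2 CPM in IL-12 with 80%TCM and at 27.3, 28.6 and 13.4 CPM in IL-2 with 80%TCM. Without TCM it was at 94.0, 95.7 and 107 CPM with IL-12 and at 15.1, 16.5 and 10.4 CPM with IL-2. All 6 IL-12 libraries were above all 6 IL-2 libraries. The difference was 3.62-fold with 80%TCM (log2 fold change 1.86 ± 0.22 SE, adjusted p = 1.56e-05) and 7.04-fold without (2.82 ± 0.23 SE, adjusted p = 4.92e-07), the widest among the 9 receptors in each of the 2 comparisons. With both replicate 3 libraries of the IL-2 groups left out, the log2 fold changes of Btla were 1.56 with 80%TCM and 2.63 without. Dendritic cells and B cells also carry BTLA. The 4 dendritic cell markers summed to 9.14 to 12.7 and 11.1 to 12.8 CPM in IL-12 with and without 80%TCM, against 1.60 to 2.36 and 2.60 to 4.22 CPM in IL-2 with and without it. Xcr1 averaged 8.57 and 10.3 CPM in IL-12 with and without 80%TCM against 0.602 and 2.14 CPM in IL-2 with and without it. Zbtb46 averaged 1.75 and 1.37 CPM against 1.18 and 0.913 CPM in the same groups, while Flt3 stayed under 0.524 CPM and Siglech was at 0 in 11 of 12 libraries. Of the B cell markers, Cd79b averaged 6.60 and 4.92 CPM in IL-12 with and without 80%TCM, against 14.5 and 15.8 CPM in IL-2 with and without it, Cd79a lay between 1.29 and 3.43 CPM and Pax5 between 0.0423 and 0.266 CPM over the 12 libraries, and Ms4a1 was at 0 in 2 libraries. The part of these transcripts in the Btla values was not tested.

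Pdcd1 was at 50.9, 51.8 and 49.4 CPM in IL-12 with 80%TCM and at 15.1, 16.9 and 25.8 CPM in IL-2 with 80%TCM. Without TCM it was at 41.3, 43.3 and 44.7 CPM with IL-12 and at 14.5, 14.5 and 21.9 CPM with IL-2. Again no IL-12 library overlapped an IL-2 library. With IL-12 over IL-2, Pdcd1 was 2.62-fold higher in the presence of 80%TCM (log2 fold change 1.39 ± 0.18 SE, adjusted p = 3.60e-05) and 2.54-fold higher without TCM (1.34 ± 0.18 SE, adjusted p = 5.00e-05). Leaving out both replicate 3 libraries of the IL-2 groups gave log2 fold changes of 1.64 and 1.56. In order of its levels the groups ran IL-12 with 80%TCM, IL-12, IL-2 with 80%TCM and IL-2, and only the last pair overlapped.

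Ctla4 went the other way. It was at 240, 260 and 248 CPM in IL-12 with 80%TCM and at 376, 394 and 327 CPM in IL-2 with 80%TCM. Without TCM it was at 162, 183 and 170 CPM with IL-12 and at 253, 239 and 247 CPM with IL-2. The IL-12 libraries lay below the IL-2 libraries in both settings, 1.47-fold with 80%TCM (log2 fold change -0.55 ± 0.07 SE, adjusted p = 3.36e-05) and 1.43-fold without (-0.52 ± 0.07 SE, adjusted p = 5.83e-05). Levels in IL-12 with 80%TCM and in plain IL-2 overlapped.

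Tigit moved in the same direction as Ctla4. It was at 19.4, 19.8 and 18.8 CPM in IL-12 with 80%TCM and at 24.9, 31.5 and 24.9 CPM in IL-2 with 80%TCM. Without TCM it was at 15.6, 15.5 and 14.6 CPM with IL-12 and at 19.1, 17.8 and 23.2 CPM with IL-2. The groups did not overlap in either comparison. With IL-12 over IL-2, Tigit was 1.40-fold lower in the presence of 80%TCM (log2 fold change -0.49 ± 0.11 SE, adjusted p = 0.00346) and 1.31-fold lower without TCM (-0.39 ± 0.11 SE, adjusted p = 0.0110).

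**Figure D2:**
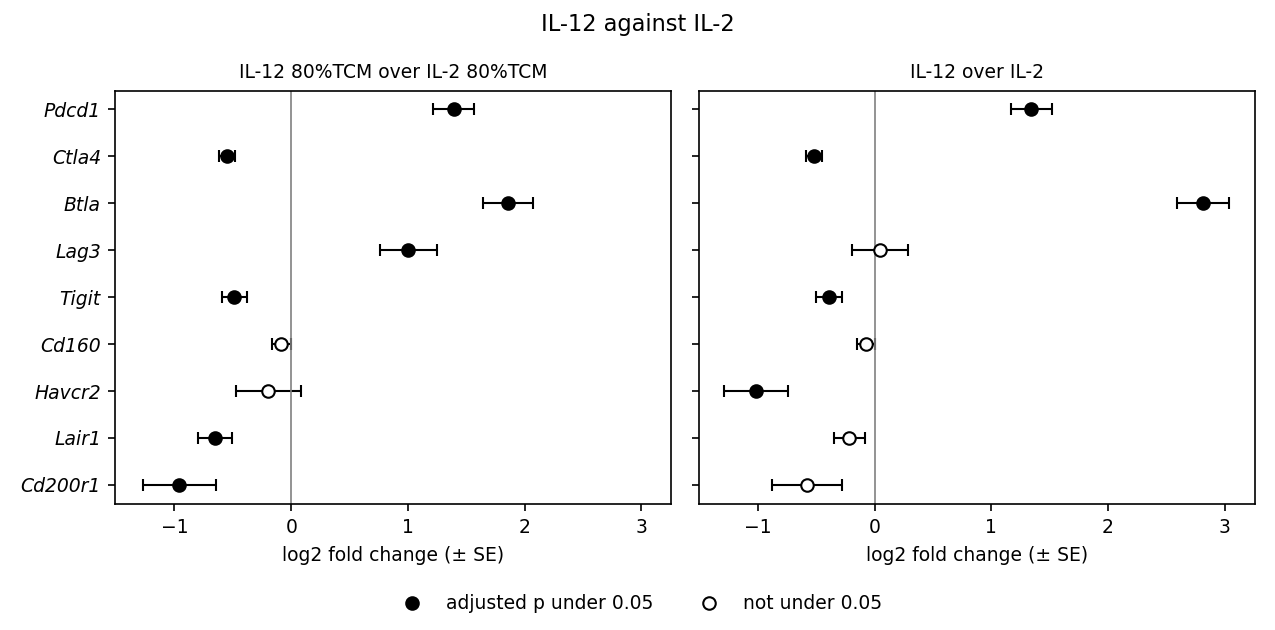
Log2 fold change of each receptor (point, bars ± SE) for IL-12 over IL-2, with 80%TCM on the left and without on the right, from edgeR over all 12 libraries. Filled points have an adjusted p under 0.05; Btla lies at 1.86 and 2.82 and Ctla4 at -0.55 and -0.52.

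Lag3 was higher with IL-12 in the presence of 80%TCM, at 368, 407 and 357 CPM in IL-12 with 80%TCM against 139, 148 and 277 CPM in IL-2 with 80%TCM (2.01-fold, log2 fold change 1.0 ± 0.24 SE, adjusted p = 0.00508). Without TCM it was at 143, 146 and 141 CPM with IL-12 and at 109, 114 and 194 CPM with IL-2. There the IL-12 values lay between those of the IL-2 libraries, and the log2 fold change of 0.05 had a 95% interval of -0.47 to 0.57. Without both replicate 3 libraries of the IL-2 groups, Lag3 was higher with IL-12 also in the comparison without TCM (log2 fold change 0.36, adjusted p = 2.07e-06). Its log2 fold change in the comparison with 80%TCM was 1.37 in that fit.

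Havcr2 was lower with IL-12 in the comparison without TCM, at 9.20, 7.19 and 7.70 CPM in IL-12 against 11.9, 12.2 and 24.8 CPM in IL-2 (2.02-fold, log2 fold change -1.02 ± 0.27 SE, adjusted p = 0.00875). With 80%TCM its libraries overlapped, at 11.1, 12.1 and 10.0 CPM in IL-12 with 80%TCM and 9.84, 10.4 and 17.8 CPM in IL-2 with 80%TCM. That log2 fold change was -0.20, with a 95% interval of -0.80 to 0.40. Without replicate 3 of both IL-2 groups the log2 fold changes of Havcr2 were 0.11 with 80%TCM, where it did not pass, and -0.59 without, where it passed (adjusted p = 4.95e-05).

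Lair1 and Cd200r1 passed the test with 80%TCM. Lair1 was at 9.84, 8.31 and 8.24 CPM in IL-12 with 80%TCM and at 15.1, 15.7 and 10.8 CPM in IL-2 with 80%TCM, with no overlap (1.58-fold lower, log2 fold change -0.66 ± 0.15 SE, adjusted p = 0.00300). Without TCM Lair1 was at 21.5, 22.3 and 22.9 CPM in IL-12 and at 26.8, 28.8 and 21.8 CPM in IL-2, which overlapped (log2 fold change -0.22, adjusted p = 0.203). It passed there with replicate number blocked among the IL-2 libraries (-0.21, adjusted p = 0.0173) and without both replicate 3 libraries (-0.34, adjusted p = 0.000282). Cd200r1 had the fewest counts of the 9, at 1.88, 2.20 and 2.05 CPM in IL-12 with 80%TCM against 2.18, 3.65 and 6.02 CPM in IL-2 with 80%TCM. Its groups overlapped, the log2 fold change was -0.96 ± 0.31 SE (adjusted p = 0.0265), and the call was lost without IL-2 80%TCM replicate 3 (log2 fold change -0.55, adjusted p = 0.107) and without any 1 library of IL-12 with 80%TCM (adjusted p = 0.0533 to 0.0768). Without TCM Cd200r1 was at 2.05, 2.20 and 1.76 CPM in IL-12 and 2.42, 2.62 and 4.04 CPM in IL-2 (log2 fold change -0.58, 95% interval -1.23 to 0.07), and it passed when IL-2 80%TCM replicate 3 was left out (adjusted p = 0.0418) and with replicate number blocked among the IL-2 libraries (adjusted p = 0.0153).

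Cd160 varied least. Its group means were 48.0 ± 2.96 CPM in IL-12 with 80%TCM, 52.1 ± 1.70 CPM in IL-12, 50.8 ± 4.91 CPM in IL-2 with 80%TCM and 54.9 ± 4.40 CPM in IL-2, with 1.14-fold between the highest and the lowest. Every pair of groups compared overlapped, it passed in none of the 4 comparisons of 2 groups, and the 95% intervals of its log2 fold changes stayed between -0.29 and 0.09. Without both replicate 3 libraries of the IL-2 groups it was lower in IL-12 with 80%TCM than in IL-2 with 80%TCM (log2 fold change -0.17, adjusted p = 0.0326). Its exons overlap those of Pdzk1 on the opposite strand. Whether the counting used strand is not stated in the labels, so reads of the 2 genes cannot be told apart with certainty.

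The comparison of 80%TCM with none within IL-12 asked how the added TCM changed the receptors. Lag3, Ctla4 and Tigit rose and Lair1 fell, so that 4 of 9 receptors passed, beside 29% of all genes tested (14.8% higher, 14.2% lower). The median log2 fold change of the 9 was 0.23, against 0.01 for all genes tested. The 2 groups did not overlap for 7 of the 9 receptors, and for 52.1% of all genes tested.

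Lag3 was at 368, 407 and 357 CPM in IL-12 with 80%TCM and at 143, 146 and 141 CPM in IL-12. Every library with TCM was above every library without (2.63-fold, log2 fold change 1.40 ± 0.24 SE, adjusted p = 0.00108). Lair1 moved by nearly as much in the other direction, to 8.80 ± 0.903 CPM with 80%TCM against 22.2 ± 0.700 CPM without, and fell 2.52-fold (log2 fold change -1.34 ± 0.14 SE, adjusted p = 4.02e-05). Platelets are among the sources of other transcripts in spleen, and the 4 platelet markers Pf4, Ppbp, Itga2b and Gp9 summed to 23.2 to 29.5 CPM in IL-12 with 80%TCM, against 57.0 to 67.5 CPM in IL-12. In the IL-2 groups they summed to 41.8 to 54.2 CPM with 80%TCM, against 102 to 124 CPM without. All 4 were lower with TCM in both cytokines by their means. The 5 myeloid markers summed higher with TCM, to means of 10.5 against 7.18 CPM in IL-12 and 13.4 against 10.5 CPM in IL-2. Cd79b, the highest B cell marker, averaged 6.60 against 4.92 CPM in IL-12 and 14.5 against 15.8 CPM in IL-2. The part of any of these transcripts in the Lair1 values was not tested.

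Ctla4 rose 1.45-fold with 80%TCM, to 249 ± 9.98 CPM in IL-12 with 80%TCM against 172 ± 10.9 CPM in IL-12 (log2 fold change 0.54 ± 0.07 SE, adjusted p = 0.000154). Tigit was at 19.4 ± 0.495 CPM against 15.2 ± 0.501 CPM, 1.27-fold higher and without overlap (log2 fold change 0.34 ± 0.11 SE, adjusted p = 0.0342). Its call was lost when any 1 of the 6 IL-12 libraries was left out (adjusted p = 0.0722 to 0.10). Ctla4 and Tigit are abundant in regulatory T cells. The 3 markers of CD4 and regulatory T cells summed to 28.7 to 32.7 CPM in IL-12 with 80%TCM against 15.8 to 16.8 CPM in IL-12, and to 19.6 to 33.4 CPM against 17.4 to 23.2 CPM in the IL-2 groups. Most of this was Zbtb7b. Cd4 averaged 2.45 CPM in IL-12 with 80%TCM against 0.584 CPM in IL-12, and 3.81 CPM in IL-2 with 80%TCM against 1.21 CPM in IL-2. Foxp3, the factor that defines regulatory T cells, averaged 0.462 CPM in IL-12 with 80%TCM against 0.603 CPM in IL-12, and 1.15 CPM in IL-2 with 80%TCM against 1.61 CPM in IL-2, and the part of these transcripts in the Ctla4 and Tigit values was not tested.

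**Figure D3:**
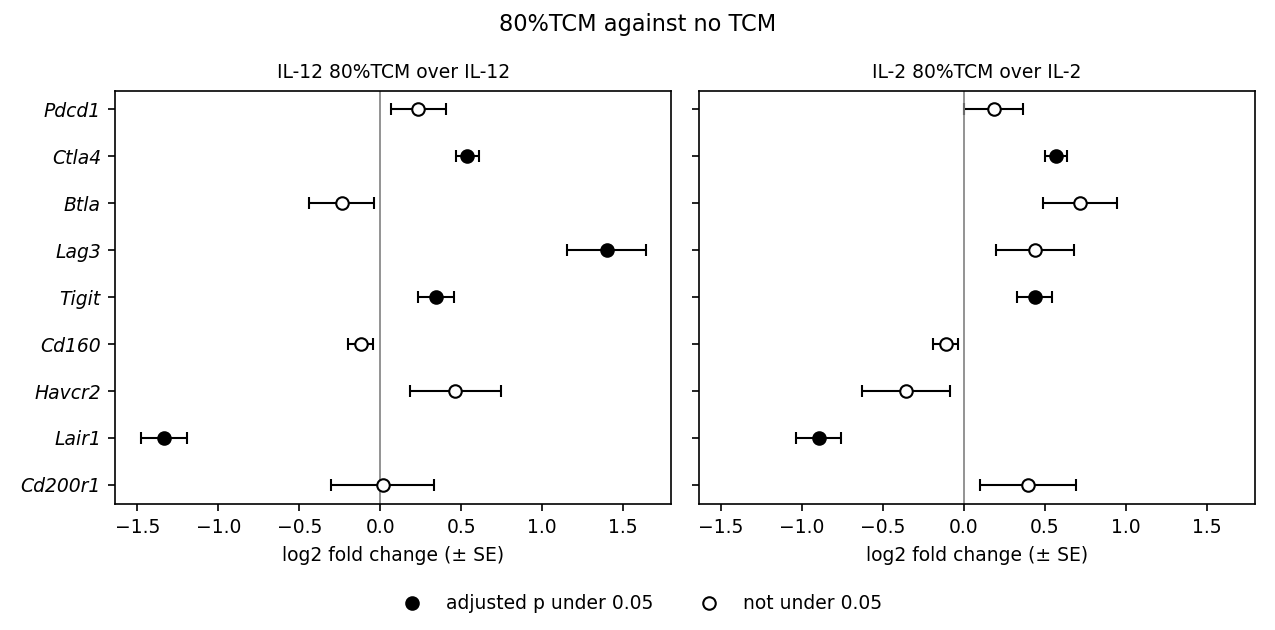
Log2 fold change of each receptor (point, bars ± SE) for 80%TCM over none, within IL-12 on the left and within IL-2 on the right, from edgeR over all 12 libraries. Filled points have an adjusted p under 0.05; Lag3 lies at 1.40 within IL-12 and 0.44 within IL-2, and Lair1 at -1.34 and -0.90.

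The remaining 5 receptors did not pass within IL-12 when all 12 libraries were fitted. Pdcd1 was at 50.7 ± 1.23 CPM with 80%TCM and 43.1 ± 1.71 CPM without, Havcr2 at 11.1 ± 1.05 and 8.03 ± 1.05 CPM, and Btla at 83.7 ± 5.09 and 98.9 ± 7.13 CPM, each without overlap. Their adjusted p-values were 0.328 for Pdcd1, 0.241 for Havcr2 and 0.409 for Btla in that fit, in which the spread is shared with the IL-2 groups. All 3 passed in a fit of the 6 IL-12 libraries alone, with log2 fold changes of 0.24 for Pdcd1, 0.46 for Havcr2 and -0.23 for Btla (adjusted p = 0.00046, 0.00122 and 0.000658). They also passed without the replicate 3 libraries of the IL-2 groups, at adjusted p = 0.000759, 0.00068 and 0.000387, and with replicate number as a blocking term for the IL-2 libraries, at 0.00197, 0.0015 and 0.00609. In each of these 3 fits 7 of 9 receptors passed, beside 48.9% of all genes in the fit of the IL-12 libraries, 46% without replicate 3 and 42% with the block. Cd160 and Cd200r1 overlapped between the groups and passed in none of these fits.

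Within IL-2, Ctla4 and Tigit rose and Lair1 fell with 80%TCM, so that 3 of 9 receptors passed, beside 14.5% of all genes tested (6.73% higher, 7.82% lower). The same 3 were the ones whose groups did not overlap, as for 27.4% of all genes tested. The median log2 fold change of the 9 was 0.40, against 0.00 for all genes tested. Ctla4 was at 376, 394 and 327 CPM in IL-2 with 80%TCM and at 253, 239 and 247 CPM in IL-2 (1.48-fold, log2 fold change 0.57 ± 0.07 SE, adjusted p = 0.000246). Lair1 was at 15.1, 15.7 and 10.8 CPM in IL-2 with 80%TCM and at 26.8, 28.8 and 21.8 CPM in IL-2 (1.86-fold lower, log2 fold change -0.90 ± 0.14 SE, adjusted p = 0.00113). Tigit was at 24.9, 31.5 and 24.9 CPM with 80%TCM and at 19.1, 17.8 and 23.2 CPM without (log2 fold change 0.44 ± 0.11 SE, adjusted p = 0.0176). The Tigit call was lost without IL-2 replicate 1, IL-2 replicate 2 or IL-2 80%TCM replicate 2 (adjusted p = 0.0576, 0.0651 and 0.0550), and in a fit of the 6 IL-2 libraries alone (adjusted p = 0.120).

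Among the other 6 receptors, Pdcd1, Cd160 and Cd200r1 passed within IL-2 in none of the fits run. Of 21 alternative fits, Lag3 passed in 4, Btla in 7 and Havcr2 in 1, the fit with replicate number blocked among the IL-2 libraries. The replicate 3 libraries of the 2 IL-2 groups deviated together from their group means (correlation 0.68). Replicates 1 and 2 correlated across numbers (0.41 and 0.45) as highly as within them (0.43 and 0.40). Pairing by number was therefore taken as given, and the data tell only replicate 3 apart. With replicate number as a block among the IL-2 libraries, 6 of 9 receptors passed, beside 27.9% of all genes tested. Lag3 rose in that fit (log2 fold change 0.42, adjusted p = 3.16e-06), and its ratio of 80%TCM to none was 1.28, 1.30 and 1.43 for replicates 1, 2 and 3. Btla rose as well (log2 fold change 0.70, adjusted p = 3.16e-06), with ratios of 1.81, 1.74 and 1.29, after an adjusted p of 0.0507 without the block. Havcr2 fell (log2 fold change -0.34, adjusted p = 0.0125), with ratios of 0.823, 0.853 and 0.719. Pdcd1, with ratios of 1.04, 1.17 and 1.18, did not pass with the block (adjusted p = 0.0584) or without it (adjusted p = 0.546). Without both replicate 3 libraries 5 of 9 passed, beside 24.7% of all genes, and Havcr2 was not among them (adjusted p = 0.134).

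**Figure D4:**
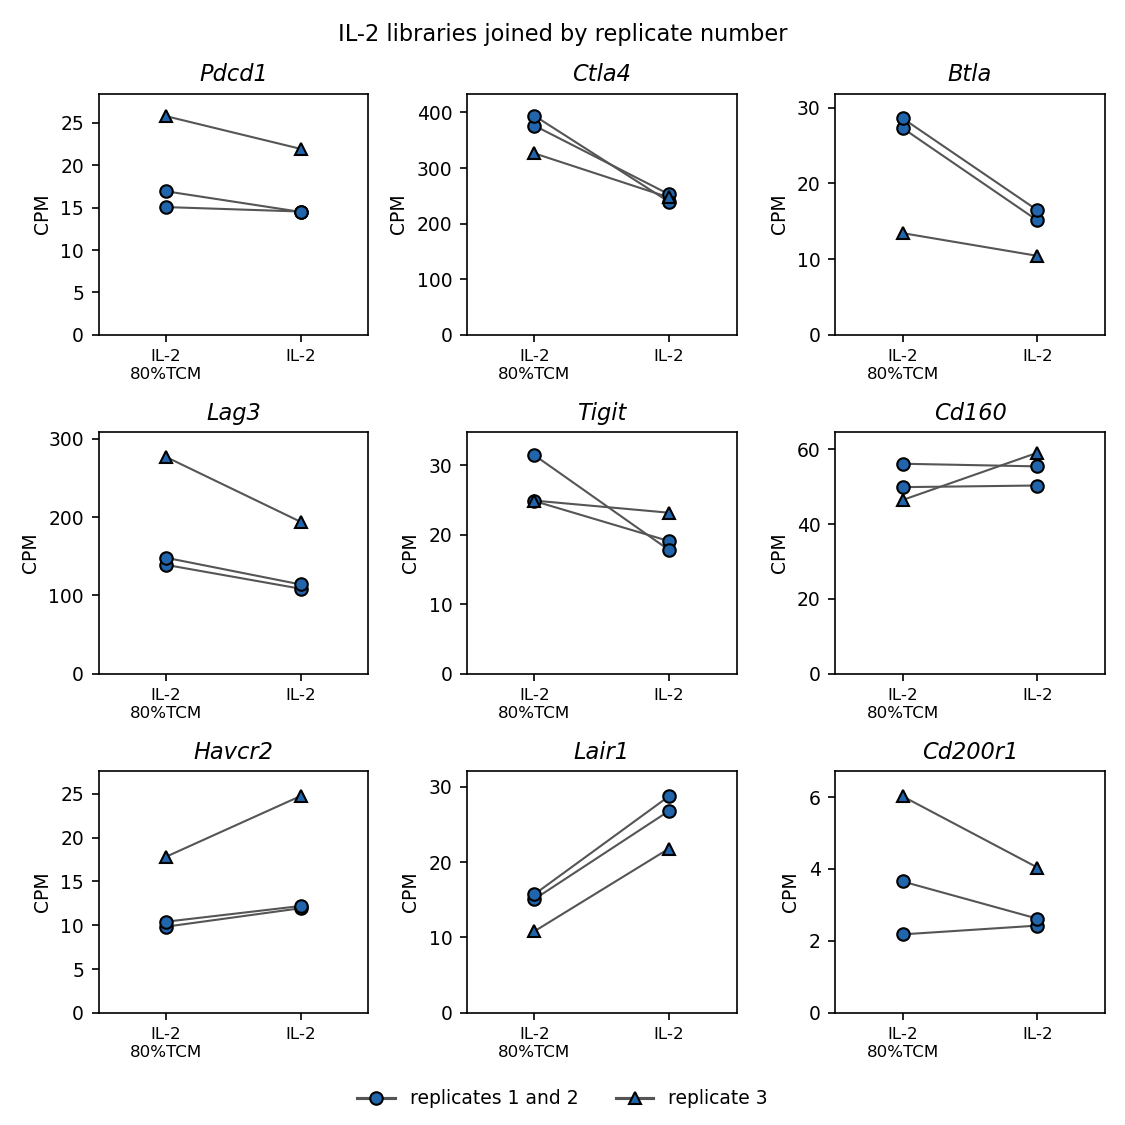
CPM of each receptor in IL-2 with 80%TCM (left) and IL-2 (right), with a line joining the libraries of equal replicate number. Lag3 and Btla are higher at the IL-2 80%TCM end of all 3 lines and Havcr2 and Lair1 lower, while replicate 3 runs at another level for Lag3, Havcr2, Btla and Pdcd1.

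Whether the change with 80%TCM differed between the cytokines was tested as the difference of the 2 log2 fold changes. None of the 9 receptors passed by edgeR's quasi-likelihood test over all 12 libraries, beside 1.58% of all genes tested. At an unadjusted p under 0.05 there were 3 receptors, Lag3, Btla and Lair1, and DESeq2 called none. The share of all genes at that unadjusted cut was not taken, so the 3 are no result about the receptors. The difference was 0.96 ± 0.34 SE for Lag3 (adjusted p = 0.201), -0.96 ± 0.30 SE for Btla (adjusted p = 0.151) and -0.44 ± 0.20 SE for Lair1 (adjusted p = 0.323), on the log2 scale. With replicate number blocked among the IL-2 libraries 4 receptors passed, beside 10.5% of all genes: Lag3 (0.98, adjusted p = 1.25e-08), Btla (-0.94, adjusted p = 5.38e-06), Havcr2 (0.80, adjusted p = 0.000868) and Lair1 (-0.43, adjusted p = 0.0170). The same 4 passed without both replicate 3 libraries, beside 13.2% of all genes, and Lag3, Btla and Lair1 passed without IL-2 80%TCM replicate 3 alone (adjusted p = 0.00292, 0.000767 and 0.0316). For Ctla4 the difference was -0.03, with a 95% interval of -0.25 to 0.18, and for Tigit it was -0.09, with an interval of -0.43 to 0.24.

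In both IL-2 groups replicate 3 stood off replicates 1 and 2 for several receptors. Pdcd1, Lag3, Havcr2 and Cd200r1 were above both other replicates by more than 1.5-fold of their mean in IL-2 with 80%TCM and in IL-2. Lag3 was 1.93 times and 1.74 times that mean, Havcr2 1.76 and 2.05 times, Cd200r1 2.06 and 1.60 times, and Pdcd1 1.61 and 1.51 times. Btla was below it in both groups, at 0.480 and 0.661 times, and Lair1 at 0.702 and 0.785 times. Ctla4 stayed close, at 0.847 and 1.0 times. Tigit and Cd160 went opposite ways in the 2 groups, with Tigit at 0.885 times in IL-2 with 80%TCM and 1.26 times in IL-2, and Cd160 at 0.876 and 1.12 times. In the IL-12 groups replicate 3 was within 1.5-fold of the mean of replicates 1 and 2 for all 9 receptors, between 0.829 times for Cd200r1 and 1.13 times for Btla, both in IL-12. These are values of 1 library a group, and no test was made on them.

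**Figure D5:**
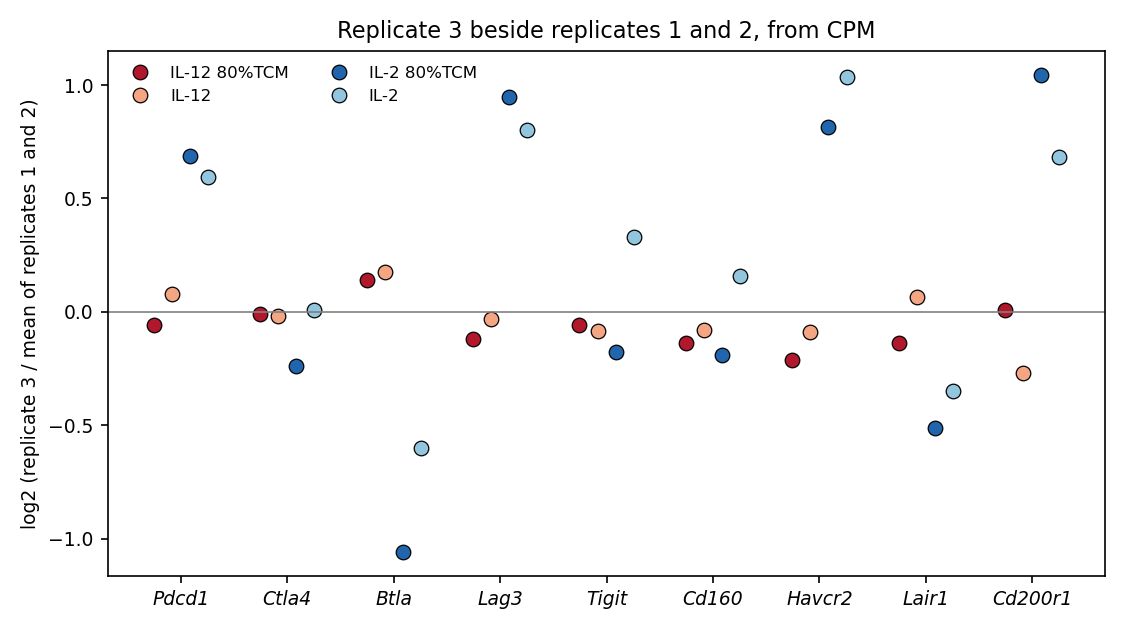
Log2 ratio of replicate 3 to the mean of replicates 1 and 2 for each receptor, 1 point per group, from CPM. The 2 IL-2 groups lie at 0.59 or more for Pdcd1, Lag3, Havcr2 and Cd200r1 and at -0.60 or less for Btla, while the IL-12 groups lie between -0.27 and 0.18.

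The genes around the receptors in their pathway were counted from lists of ligands, other inhibitory receptors, signalling proteins, activating counterparts and transcription factors. Of all genes tested, 29% passed for 80%TCM over none within IL-12 and 14.5% within IL-2. For IL-12 over IL-2, 39% passed with 80%TCM and 45.1% without. For the difference between the cytokines 1.58% passed, 13.2% without both replicate 3 libraries and 10.5% with the IL-2 replicate block. A count near these shares is no result about a list. They were not taken for fits that left out 1 library. Of 13 ligands 12 were tested. With 80%TCM 3 were higher and 1 lower within IL-12, and 3 were higher within IL-2. Pvr, the ligand of TIGIT, rose in both, to 27.0 ± 1.37 CPM in IL-12 with 80%TCM against 12.8 ± 0.623 CPM in IL-12 (adjusted p = 3.14e-05), and to 28.6 ± 2.31 CPM in IL-2 with 80%TCM against 16.3 ± 2.91 CPM in IL-2 (adjusted p = 0.000514). Pdcd1lg2, which encodes the PD-1 ligand PD-L2, rose within IL-12, to 6.94 against 2.65 CPM (2.62-fold, adjusted p = 3.98e-05), and within IL-2 by 1.38-fold (adjusted p = 0.0473), a call lost in 11 of 12 fits that left out 1 library. Hmgb1, a nuclear protein that TIM-3 can bind, fell within IL-12 to 387 against 571 CPM (adjusted p = 0.00157). IL-12 over IL-2 gave 1 higher and 3 lower ligands with 80%TCM and 2 higher and 5 lower without. Lgals9, which encodes galectin-9, was lower in both, at 94.2 against 175 CPM with 80%TCM and 94.3 against 168 CPM without (adjusted p = 2.17e-07 and 5.04e-07). Cd80 was lower with IL-12 in both, at 4.43 against 7.46 CPM with 80%TCM (adjusted p = 0.0124) and 3.91 against 6.73 CPM without (adjusted p = 0.00938). Tnfrsf14, which encodes HVEM, was at 50.6 to 60.5 CPM by group means and passed in none of the 4 comparisons. With single libraries left out the count of ligands that passed ran from 4 to 9 for IL-12 over IL-2 without TCM, with the 4 left without IL-2 replicate 3, and from 2 to 6 for 80%TCM over none.

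Of 12 other inhibitory receptors, 4 were higher and 7 lower with IL-12 in the presence of 80%TCM, and 3 were higher and 7 lower without. Klrc1, which encodes the NKG2A receptor, was higher, at 26.6 against 13.9 CPM with 80%TCM and 27.5 against 11.4 CPM without (adjusted p = 0.000137 and 1.05e-05). Vsir, which encodes VISTA, was at 285 CPM in IL-12 against 180 CPM in IL-2 (1.58-fold, adjusted p = 6.21e-06). In the presence of 80%TCM it was 1.69-fold higher with IL-12 than with IL-2 (adjusted p = 1.68e-06). Cd101 was lower, at 8.10 against 24.6 CPM with 80%TCM and 7.72 against 19.9 CPM without (adjusted p = 5.44e-07 and 2.30e-06). With 80%TCM 1 was higher and 2 lower within IL-12, where Cd96, another receptor of PVR, fell to 142 against 218 CPM (adjusted p = 0.000333). Within IL-2 none was higher and 1 was lower, the leukocyte immunoglobulin-like receptor gene Lilrb4a, at 14 against 21.3 CPM (adjusted p = 0.00372). Without IL-2 80%TCM replicate 3 the count within IL-2 was 5, and without IL-2 replicate 3 or IL-2 80%TCM replicate 2 it was 2. Within IL-12 it was 1 without IL-12 replicate 2 or IL-12 80%TCM replicate 1.

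Among 14 signalling genes, 4 were higher and 2 lower with 80%TCM within IL-12, and 3 higher and 2 lower within IL-2. Ptpn6, which encodes the phosphatase SHP-1 that several of the receptors recruit, fell in both, 1.41-fold within IL-12 (log2 fold change -0.49 ± 0.05 SE, adjusted p = 1.84e-05) and 1.43-fold within IL-2 (-0.52 ± 0.05 SE, adjusted p = 3.98e-05). With IL-12 over IL-2 the counts were 5 higher and 3 lower with 80%TCM and 3 higher and 3 lower without. The kinase gene Fyn was higher in both (log2 fold changes 1.23 and 0.95, adjusted p = 5.77e-10 and 8.23e-09), as was Pag1, an adaptor that binds the kinase CSK (1.43 and 0.77, adjusted p = 8.39e-09 and 3.58e-06). The change of Pag1 with 80%TCM differed between the cytokines (difference 0.65, adjusted p = 0.00960). It was the 1 gene of this list to pass there over all 12 libraries, while 4 passed without IL-2 80%TCM replicate 3, 2 without IL-2 replicate 3, 8 without both and 6 with replicate number blocked among the IL-2 libraries. Sh2d1a, an adaptor of SLAM family receptors, was lower with IL-12 (log2 fold changes -1.14 with 80%TCM and -0.74 without, adjusted p = 4.74e-05 and 0.00134). The counts with 80%TCM over none were not stable: with single libraries left out 2 to 4 of the 14 passed within IL-2, and 3 to 7 within IL-12. For IL-12 over IL-2 with 80%TCM 5 passed without IL-2 80%TCM replicate 2 or IL-12 80%TCM replicate 1.

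The 4 activating counterparts are Cd28, Icos, Cd226 and Tnfsf14. With IL-12 over IL-2 2 were higher and 2 lower in the presence of 80%TCM, and 2 were higher and 1 lower without. Cd28 (log2 fold changes 1.02 and 1.15, adjusted p = 1.32e-05 and 4.62e-06) and Icos (1.39 and 1.39, adjusted p = 1.89e-09 and 2.71e-09) were higher. They flank Ctla4, which was lower, on chromosome 1. Cd226, the activating competitor of TIGIT, was lower (log2 fold changes -1.07 and -0.75, adjusted p = 2.08e-08 and 7.91e-07), in the same direction as Tigit. With 80%TCM 1 was higher and 1 lower within IL-12 and none passed within IL-2. Tnfsf14, which encodes the HVEM ligand LIGHT, fell within IL-12 (log2 fold change -0.82, adjusted p = 0.000440). The Icos call there (adjusted p = 0.0402) was lost in 10 of 12 fits that left out 1 library. Within IL-2, 3 of the 4 passed without IL-2 80%TCM replicate 3.

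Of 19 transcription factors linked to expression of checkpoint receptors 18 were tested. With IL-12 over IL-2, 5 were higher and 8 lower with 80%TCM, and 5 higher and 9 lower without. Tox, a factor known for sustaining checkpoint receptor expression in chronically stimulated CD8 T cells, was lower in both (3.72-fold with 80%TCM and 2.12-fold without, adjusted p = 3.15e-06 and 0.000227), as was Id3 (log2 fold changes -2.63 and -1.55, adjusted p = 5.57e-07 and 2.97e-05). Eomes was also lower in both (2.74-fold with 80%TCM and 2.15-fold without, adjusted p = 1.35e-07 and 1.68e-06), and so was Tcf7 (3.11- and 2.14-fold, adjusted p = 6.55e-06 and 0.000188). The 5 higher without TCM were Id2 (2.04-fold), Tbx21 (1.74-fold), Nfatc2 (1.55-fold), Nr4a1 (1.52-fold) and Nr4a2 (1.22-fold). Those higher with IL-12 in the presence of 80%TCM included Nfatc2 (2.22-fold, adjusted p = 1.32e-08) and Prdm1 (2.04-fold, adjusted p = 0.0395). With 80%TCM 2 were higher and 3 lower within IL-12, and 2 higher and 2 lower within IL-2. Nr4a2, an early response factor downstream of the T cell receptor, rose within IL-2 (1.76-fold, adjusted p = 0.000331), and Maf fell within IL-2 (2.02-fold, adjusted p = 0.000383). The change with 80%TCM differed between the cytokines for 2 of the 18, Nfatc2 (difference 0.52, adjusted p = 0.0121) and Maf (1.01, adjusted p = 0.0151), and the Maf call was lost without IL-2 replicate 2, IL-12 replicate 2 or IL-12 80%TCM replicate 2 (adjusted p = 0.0525 to 0.0669). The count of 2 became 10 without IL-2 80%TCM replicate 3, 12 without both replicate 3 libraries and 13 with replicate number blocked among the IL-2 libraries. With single libraries left out 3 to 10 of the 18 passed within IL-12 and 3 to 9 within IL-2 for 80%TCM over none, and the highest counts came without IL-2 80%TCM replicate 3.

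Over the 12 libraries, the genes whose log2(CPM + 1) was most like that of a receptor were Fxyd5 and Tbx21 for Pdcd1 (Pearson's r 0.99 each), Il6st and Pde4b for Btla (0.99 each), and Gnb4 and Zfp983 for Ctla4 (0.98 each). For Lag3 they were Adamts14 and Rab33a (0.98 each), for Havcr2 Fam110a and N4bp1 (0.97 and 0.96), and for Lair1 Adss was the second closest (0.97). Tigit was closest to Nt5c3 and Gnb4 (0.97 and 0.95), Cd200r1 to Hmcn2 and Tmem25 (0.96 and 0.95) and Cd160 to Rbm44 and Maged1 (0.89 and 0.87). The libraries fall into 4 treatment groups, and replicate 3 of the IL-2 groups stood apart for several receptors, so these values may restate either. Havcr2 in IL-2 replicate 3 was 2.05 times the mean of replicates 1 and 2, against 2.03-fold between its highest and lowest group means. Among the receptors Ctla4 and Tigit were most alike (0.94) and Lag3 and Lair1 most opposed (-0.92).

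2 of the receptors lie beside a gene from the lists of ligands or activating counterparts in the RefSeq annotation. Btla is next to Cd200 on chromosome 16, and both were higher with IL-12. Cd200, which encodes the ligand of CD200R, was at 54.9 CPM in IL-12 with 80%TCM against 14.5 CPM in IL-2 with 80%TCM (3.78-fold, adjusted p = 1.74e-08), and at 55.6 CPM in IL-12 against 9.53 CPM in IL-2 (5.83-fold, adjusted p = 2.10e-09). Ctla4 lies between Cd28 and Icos, as above. Cd200r1 lies beside its close relative Cd200r4, and reads that both share could have been split between them in the counting.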

How the data were processed

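Total RNA of 12 libraries was prepared with a modified directional NEBNext Ultra II protocol, per the labels' protocols, whose extraction text speaks of livers of treated mice that no sample label names. The deposited counts per gene follow STAR 2.7.7a, per the submitters' processing notes, which also name edgeR without a version and the human build GRCh38, although the identifiers are those of mouse. The CPM files deposited by the authors were not used.

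From the deposited counts, libraries were scaled by TMM and filtered with filterByExpr (minimum count 10, minimum total 15), which left 15897 genes. edgeR 4.0.16 (R 4.3.3) fitted 1 mean per group over all 12 libraries with a quasi-likelihood F test, a common biological coefficient of variation of 0.104, and Benjamini-Hochberg adjustment over all genes tested. A gene passes, or is called, at an adjusted p under 0.05. Standard errors are the fold change over the root of F, and 95% intervals are approximate. A name table gave symbols for 55141 identifiers and none for 346, and exon lengths are those of GENCODE annotation. Promoter sequences are from RefSeq (GRCm38.p6), which gave windows for 7 of the 9 receptors. The scripts were checked on simulated data. A marker of B cells and the gene closest to Lair1 are not reported here.

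The receptors and lists were chosen with earlier results of these data known. All 9 receptors are named, and from each list up to 3 called genes of largest fold change with at least 5 CPM. Cd80 and Tox without TCM, Cd28, Eomes, Tcf7 and Vsir with TCM, and Tnfrsf14 are named beyond that rule, after their values were seen. So are the transcription factors named as higher with IL-12. Alternatives were DESeq2 size factors, upper-quartile scaling, no filter, DESeq2 1.42.0, a filter at a mean of 5 CPM, only the groups compared, replicate blocks, and libraries left out. Same-number libraries of the 2 IL-2 groups deviated together from their group means (correlations 0.43, 0.40 and 0.68, each over 0.1), so the replicate number was taken as pairing them. With replicate 3 apart in both groups, replicates 1 and 2 share deviations from these means whatever their number. IL-2 80%TCM replicate 1 correlated as highly with IL-2 replicate 2 (0.41), and IL-2 80%TCM replicate 2 with IL-2 replicate 1 (0.45). The data therefore tell only replicate 3 apart, and the pairing of replicates 1 and 2 was assumed.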

Additional observations from a re-analysis of the deposited data

Results flagged for a closer look

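The change with 80%TCM differed between IL-12 and IL-2 for 4 receptors when replicate number entered as a block among the IL-2 libraries. The difference of the log2 fold changes, within IL-12 minus within IL-2, was 0.98 for Lag3, 0.80 for Havcr2, -0.94 for Btla and -0.43 for Lair1. In the fit without the block no receptor passed (0 of 9 by edgeR, 0 by DESeq2 and 3 at an unadjusted p under 0.05). For the unadjusted cut no share of all genes was taken. Btla went in opposite directions, lower with 80%TCM in each IL-12 replicate number (ratios 0.842, 0.866 and 0.833) and higher in each IL-2 number (1.81, 1.74 and 1.29). Havcr2 was higher in each IL-12 number (1.21, 1.69 and 1.30) and lower in each IL-2 number (0.823, 0.853 and 0.719). Libraries of equal number in the 2 IL-12 groups hardly deviated together (correlations 0.13, 0.010 and 0.022), so those ratios match libraries by number alone. In the IL-2 groups the data tell only replicate 3 apart.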

How the results depend on the processing

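The count of receptors that passed stayed within 1.5 times for IL-12 against IL-2 under every alternative run. For 80%TCM over none within IL-2, against 3 receptors, 5 passed with no filter on low counts, 6 with a replicate block among the IL-2 libraries and 5 without both replicate 3 libraries. Within IL-12, against 4, there were 7 each with only the groups compared, with that block and without both replicate 3 libraries. For the difference between the cytokines, against 0, there were 3 with no filter, 4 with the block and 4 without both replicate 3 libraries, and single libraries left out gave 0 to 3. The replicate block over all libraries gave 4 for 80%TCM within IL-2, 4 within IL-12, 5 for IL-12 against IL-2 without TCM, 7 with TCM and 0 for the difference, and libraries of equal number hardly deviated together outside the IL-2 groups. Single libraries left out gave 2 to 4, 3 to 4, 5 to 6 and 6 to 7 for the first 4 of these. Shares of all genes were not taken with no filter, with the block over all libraries or with single libraries left out. Counts from those fits are therefore no result about the receptors. The cause of the changes in count was not tested. Of 931 values of single receptors under alternatives, 845 kept direction and call, 15 lost the call, 44 gained it and 27 changed sign, none of them called.

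Signs changed for values near 0, on the log2 scale. With 80%TCM within IL-2, single libraries left out gave -0.67 to 0.067 for Havcr2, -0.068 to 0.41 for Pdcd1 and -0.019 to 0.68 for Cd200r1, and without both replicate 3 libraries Cd160 was at 0.0054. Cd200r1 within IL-12 was at -0.0038 with no filter, -0.043 with the block over all libraries, -0.0058 without both replicate 3 libraries and -0.065 to 0.073 with single libraries left out. For IL-12 against IL-2 without TCM, Lag3 was at -0.033 with upper-quartile scaling and -0.087 to 0.36 with single libraries left out. With TCM, Havcr2 was at 0.11 without both replicate 3 libraries and -0.35 to 0.12 with single libraries left out. The difference between the cytokines ran, over single libraries left out, from -0.18 to 0.29 for Pdcd1, -0.093 to 0.052 for Cd160, -0.13 to 0.0092 for Ctla4, -0.22 to 0.011 for Tigit and -0.68 to 0.019 for Cd200r1. Depth limits Cd200r1, with as few as 35 counts in a library, more than the other receptors.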
